A study of Mus musculus with 16 samples.

Results

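The genes described here are the mouse counterparts of 45 human genes with strong links to autism spectrum disorder (ASD), followed in the prefrontal cortex (PFC) of mice with altered β-catenin (β-cat). They were listed by symbol from what is known of human genetics. The rule uses no expression value, but the list was drawn up with earlier results of these data known. Genes for synaptic receptors and scaffolds were left out. All 45 were among the 23284 genes of the table, and all 45 were among the 13978 genes that averaged 0.5 FPKM or more (fragments per kilobase of transcript, scaled to the mapped fragments of the library, a level per length) that entered the tests. No ASD risk gene differed between genotypes at an adjusted p under 0.05 in any of the 7 comparisons made. The libraries nevertheless show at which levels these genes are expressed, how closely each level was fixed by the data, and which of them lay apart between genotypes in every library.

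ASD risk genes found through new mutations in affected children fall mostly into regulators of gene expression and proteins of the neuronal membrane. The first kind includes chromatin remodellers, histone-modifying enzymes and transcription factors. The second includes the sodium channels that start the action potential and the ankyrins that hold them in place. β-cat is a protein of cell junctions that also enters the nucleus, where it turns on target genes together with DNA-binding proteins of the TCF/LEF family at the end of the Wnt pathway. APC marks β-cat for destruction. Several risk genes have been tied to this pathway, such as Chd8, which encodes a remodeller that can bind β-cat. Tcf4 in the list is a basic helix-loop-helix factor and not a member of the TCF/LEF family, despite its name.

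The 16 libraries came from 4 genotypes, with 4 libraries of freshly dissected PFC in each. The study used mice of both sexes that were 2 to 3 months old. By Xist and Y-linked genes, only control replicate 1 and APC cKO replicate 1 read as female. No library of β-cat cOE or APC/β-cat cKO mice did. APC cKO mice carried floxed alleles of APC on both chromosomes (APC fl/fl). β-cat cOE mice carried 1 allele of ctnnb1 with a floxed exon 3 (ctnnb1 fl(ex3)/+), whose loss leaves a stable β-cat without its degradation domain. APC/β-cat cKO mice had both genes floxed on both chromosomes (APC fl/fl, ctnnb1 fl/fl). The same CamKIIα-Cre line, active mainly in forebrain excitatory neurons, deleted the floxed parts in all of these mice. Control mice were Cre-negative littermates pooled from the lines, and which floxed alleles each carried, if any, is not given in the sources used here. The tissue was a mix of all PFC cells, so that fewer cells of a type and less RNA per cell cannot be told apart.

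Apc itself stood at 43.9 ± 4.21 FPKM (SD, n = 4) in controls and at 44.5 ± 5.11 among β-cat cOEs, against 11.7 ± 3.88 in APC cKOs and 10.05 ± 2.30 among APC/β-cat cKOs. Its change from control was -1.95 on the log2 scale in APC cKOs (adjusted p 0.00024, limma) and -2.14 among APC/β-cat cKOs (adjusted p 3.35e-05). Ctnnb1 was between 151 and 182 FPKM in every library and did not pass the test in any comparison with control, so its deletion is not visible in these values per gene, and no values per exon were analysed here. The 7 defining genes of excitatory neurons, Slc17a7 and Camk2a among them, summed to 1084 to 1396 FPKM per library, and no marker of this list was at 0. Replicates of a genotype correlated across all tested genes at r from 0.966 to 0.984. The deposited table holds no fragment counts, so depth is unknown, and the number of genes listed at 0 per library ran from 5726 to 6649.

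The 45 ASD risk genes were a little above the typical gene. The median of their mean levels over the 16 libraries was 13.7 FPKM against 10.01 FPKM over all tested genes, and 28 of the 45 lay above the median tested gene. Levels spanned a wide range, with 17 genes under 10 FPKM, 19 between 10 and 30 FPKM, and 9 over 30 FPKM. Ank2, which encodes a large ankyrin that links membrane proteins to the cytoskeleton, had the highest mean level (80.9 FPKM). Cul3, the scaffold of a family of ubiquitin ligases, was next at 67.9 FPKM. Scn2a1, the mouse gene for the sodium channel NaV1.2, followed at 52.0 FPKM. Myt1l (46.4 FPKM) and Tcf4 (46.2 FPKM), both neuronal transcription factors, came after it. At the other end, Met, a receptor tyrosine kinase of developing cortical neurons, was at 0.768 FPKM and was the only one of the 45 below 2 FPKM. Katnal2, a relative of the microtubule-severing katanins, was at 2.61 FPKM, and Kdm6b, a histone H3 lysine demethylase, was at 2.62 FPKM. Order by level was loose in its fine detail, since 40 of the 44 neighbouring pairs in the order of control means had overlapping control libraries.

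**Figure D1:**
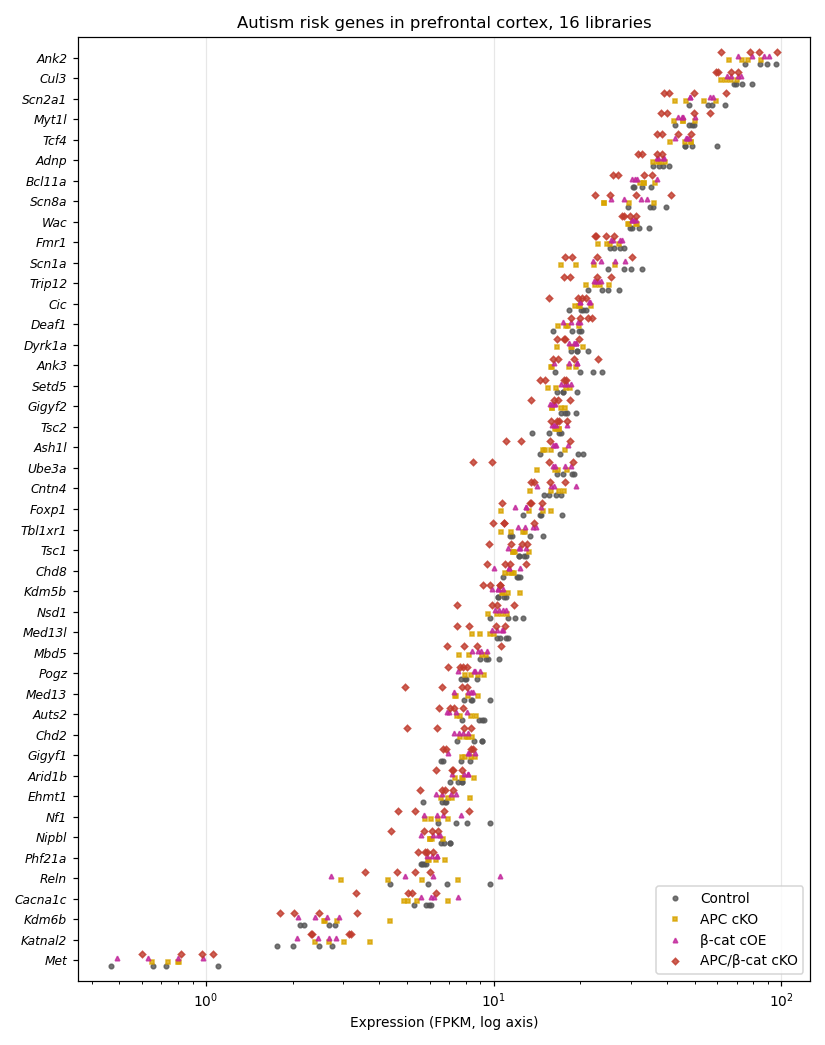
Expression of each of the 45 ASD risk genes in all 16 libraries, in FPKM on a log axis, ordered by the mean over libraries. Each point is 1 library, and the symbols of the 4 genotypes lie over each other for nearly all genes, from Met (0.468 to 1.1 FPKM) up to Ank2 (61.9 to 96.7 FPKM).

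The spread between replicates of these genes was that of other genes. The median of their pooled within-genotype SDs was 0.15 on the log2 scale, and the median over all tested genes was also 0.15. Phf21a, part of a complex that silences neuronal genes outside neurons, had the smallest SD of the list (0.065), and Wac, a nuclear adaptor protein, had the next (0.068). Reln had by far the largest (0.56), followed by Met (0.34), Kdm6b (0.29) and Ube3a (0.29). Reln encodes reelin, the large secreted protein that guides cortical layering and that in the adult cortex comes mostly from interneurons. It ranged from 2.71 FPKM in β-cat cOE replicate 4 to 10.6 FPKM in β-cat cOE replicate 1, so that a single genotype held both its lowest and its highest value.

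What these genes share in structure is length. In the GENCODE M21 annotation of mm10 their median gene span was 124 kb, against 24.65 kb for all tested genes with a gene model. Of the 45, 27 (60%) span more than 100 kb, and 15.4% of tested genes do. Auts2 (1106 kb, chr5:131437333-132543344, minus strand) and Cntn4 (1022 kb, chr6:105677660-106699310, plus strand) are the longest, and Gigyf1 (9.39 kb) is the shortest. Their transcripts are long too, with a median of 7.20 kb against 2.98 kb, and 27 of the 45 lie above 6.41 kb, the limit of the longest 10% of tested genes. The 45 genes lie on 16 chromosomes. For 9 of the 45 the gene span overlaps another tested gene, such as Nf1 with Evi2a and Omg, Tsc2 with Pkd1 and Ube3a with C230091D08Rik and D7Ertd715e. The sources used here do not say whether mapping and counting used the strand, so reads in these overlaps may belong to either gene.

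Promoter windows of 300 bases (250 before to 50 after the start of a transcript, RefSeq, GRCm38.p6) were at hand for 35 of the 45 genes. They were searched on both strands for the letters CTTTGAA or CTTTGAT, the core that TCF/LEF proteins bind. Of these genes only Foxp1 and Cntn4 held a match in any window, 2 of 35 (5.71%), against 6.84% of the 10785 tested genes with windows. Counted by window instead of by gene, 8.65% of all 32851 windows held a match, and the 35 genes had 56 windows. Both sequences are shown 5′ to 3′ on the strand of the gene because they are the windows where these letters were found, with the match in capitals. Both belong to transcript starts inside the gene span and not to its outermost start. That is at 99522721 for Foxp1 on the minus strand and at 105677660 for Cntn4 on the plus strand. The match starts at -205 in Foxp1, as TTCAAAG, and at -125 in Cntn4, as CTTTGAT, relative to the transcript start.
Foxp1 (chr6:99266466-99266765, minus strand): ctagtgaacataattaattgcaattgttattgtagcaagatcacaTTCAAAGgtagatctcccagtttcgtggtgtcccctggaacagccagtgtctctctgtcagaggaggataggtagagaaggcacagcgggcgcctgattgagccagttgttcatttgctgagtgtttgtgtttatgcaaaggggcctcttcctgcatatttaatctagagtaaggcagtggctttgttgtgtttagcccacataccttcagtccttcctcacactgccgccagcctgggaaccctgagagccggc
Cntn4 (chr6:106118692-106118991, plus strand): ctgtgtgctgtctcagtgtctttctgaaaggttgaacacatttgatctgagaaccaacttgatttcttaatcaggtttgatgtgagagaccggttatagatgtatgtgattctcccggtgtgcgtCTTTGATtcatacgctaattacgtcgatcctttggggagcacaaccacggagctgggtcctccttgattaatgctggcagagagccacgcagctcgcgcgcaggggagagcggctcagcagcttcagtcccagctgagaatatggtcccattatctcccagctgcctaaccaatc
Foxp1, a forkhead repressor of deep cortical layers and of the striatum, and Cntn4, an adhesion molecule of axons, are described with their groups below.

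CpG dinucleotides were counted in the same windows. The median count of CpG in the richest window was 29 for the 35 genes and 22 for tested genes. Med13l, with the highest count of the list (61), and Scn1a, whose window holds 5, are shown with every CpG in capitals because Scn1a had the largest difference from control in APC cKOs and Med13l lay below every control there.
Med13l (chr5:118560469-118560768, plus strand): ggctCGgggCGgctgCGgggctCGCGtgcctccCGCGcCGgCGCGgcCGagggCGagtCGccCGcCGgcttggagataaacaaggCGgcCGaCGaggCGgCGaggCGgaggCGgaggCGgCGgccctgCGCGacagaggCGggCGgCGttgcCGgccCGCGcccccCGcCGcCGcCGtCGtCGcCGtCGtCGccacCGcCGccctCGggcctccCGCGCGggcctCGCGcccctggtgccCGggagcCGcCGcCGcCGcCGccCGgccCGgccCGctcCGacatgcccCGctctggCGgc
Scn1a (chr2:66440788-66441087, minus strand): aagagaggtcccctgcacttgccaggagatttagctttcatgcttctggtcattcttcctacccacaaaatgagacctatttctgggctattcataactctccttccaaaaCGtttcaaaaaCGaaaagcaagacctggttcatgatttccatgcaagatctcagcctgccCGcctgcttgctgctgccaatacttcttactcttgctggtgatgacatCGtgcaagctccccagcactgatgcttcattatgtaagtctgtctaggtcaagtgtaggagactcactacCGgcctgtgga

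The ASD risk genes were then compared between genotypes. Fold changes are log2 differences of FPKM + 0.1, which understates changes of the lowest genes, and p-values are from limma with Benjamini-Hochberg adjustment over all 13978 tested genes. The 3 comparisons with control share the same 4 control libraries, so their values are given side by side and are not independent of each other. No ASD risk gene passed in APC cKOs, where 0.0429% of all tested genes did, among β-cat cOEs (0.0143%) or among APC/β-cat cKOs (0.207%). The smallest adjusted p among the 45 was 0.362 in APC cKOs, 0.946 among β-cat cOEs and 0.201 among APC/β-cat cKOs. None passed between APC cKOs and APC/β-cat cKOs (background 0.215%), between β-cat cOEs and APC/β-cat cKOs (0.229%), or between APC cKOs and β-cat cOEs (0.0429%). None passed when the 8 libraries of the lines with raised β-cat, APC cKO and β-cat cOE, were set against the other 8 (0.0572%). Raised β-cat refers to protein that the paper measured on PFC immunoblots, and not to Ctnnb1 RNA in these libraries. At an unadjusted p under 0.05 there were 4 genes in APC cKOs (8.89%, all genes 10%), 1 among β-cat cOEs (2.22%, all genes 5.07%) and 13 among APC/β-cat cKOs (28.9%, all genes 14.2%). There were 3 between APC cKOs and APC/β-cat cKOs (all genes 10.3%), 4 when β-cat cOEs were set against APC/β-cat cKOs (all genes 11.9%), 0 between the lines with raised β-cat (all genes 7.57%) and 1 for both of these lines against the rest (all genes 8.84%). With each library left out in turn the counts against control ran from 1 to 8 in APC cKOs, from 1 to 3 among β-cat cOEs and from 2 to 24 among APC/β-cat cKOs. Over all 13978 genes they ran from 998 to 1814, from 512 to 987 and from 1062 to 2903.

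The data also limit how large a difference may have been missed. The 95% intervals of the log2 differences from control had a median half-width of 0.21, from 0.11 for Wac to 0.75 for Reln. The whole interval lay within 1 log2 unit of 0 for 44 of the 45 genes in APC cKOs, 45 among β-cat cOEs and 44 among APC/β-cat cKOs, with Reln outside in the first and last. Within 0.5 log2 units lay 37, 39 and 33 of them. In simulated data of the same size, 91 of 100 genes changed by 1 log2 unit and 50 of 100 changed by 0.5 were called in the comparison of APC cKO with control. All of these genes were changed at once, and the simulated libraries shared no deviations across genes. The real comparison had 6 calls, which makes its adjusted threshold stricter, so these shares may overstate what would be called here.

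**Figure D2:**
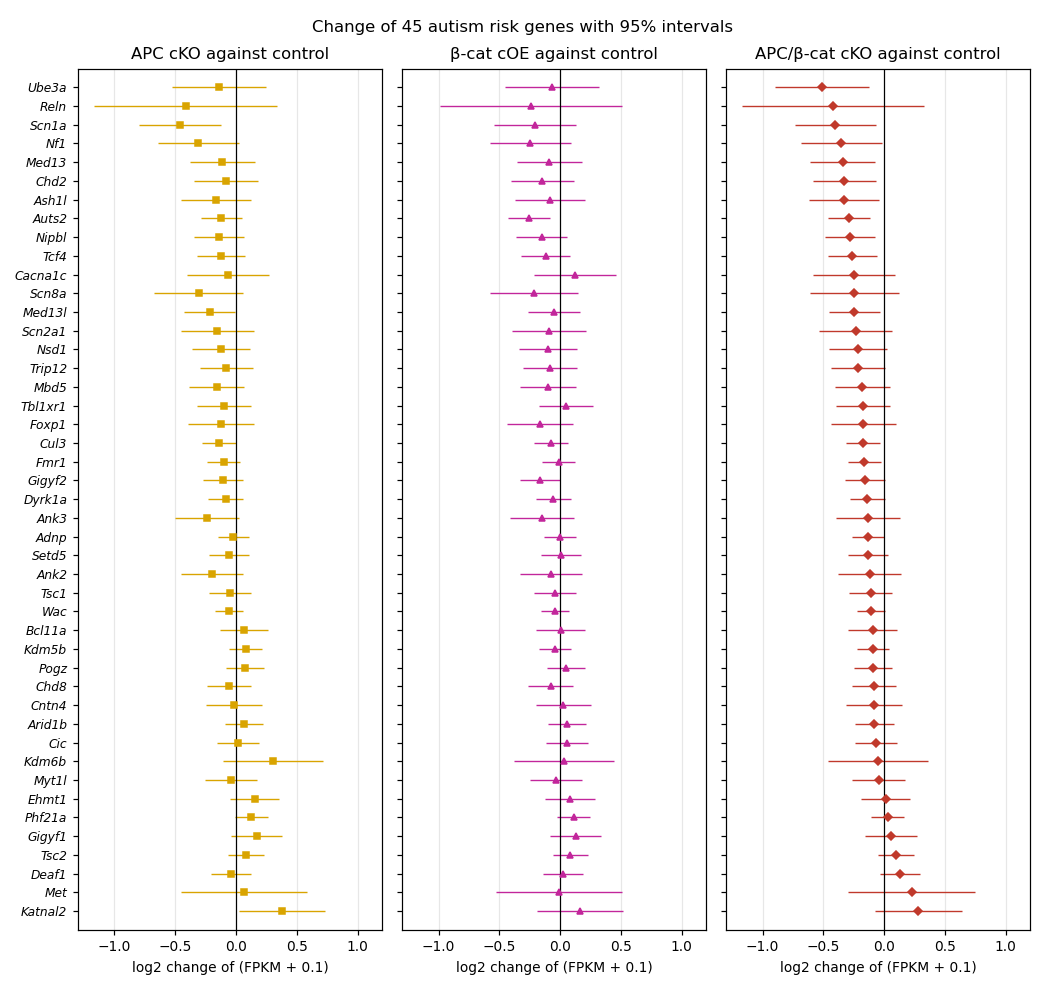
Difference from control of each of the 45 ASD risk genes in APC cKOs, β-cat cOEs and APC/β-cat cKOs, as the log2 change of FPKM + 0.1 with its 95% interval (limma), ordered by the change among APC/β-cat cKOs. Points lie left of 0 for 33, 30 and 38 genes, and no gene passes the adjusted threshold.

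Ion channels and ankyrins, which set the excitability of the axon, had the lowest medians of the 6 groups in each comparison with control. All 6 were below control in APC cKOs (median -0.22) and among APC/β-cat cKOs (median -0.24), and 5 of 6 were below among β-cat cOEs (median -0.12). Scn1a encodes the sodium channel NaV1.1, which is best known from parvalbumin-positive interneurons, and lies at chr2:66270778-66440840 on the minus strand. It was at 28.5, 33, 24.9 and 29.97 FPKM in the 4 controls and at 17.1, 26.5, 19.4 and 22.3 FPKM in the 4 APC cKOs. Only APC cKO replicate 2 reached into the control range, above the lowest control. The difference was -0.46 ± 0.16 (SE) on the log2 scale, or 0.728-fold with a 95% interval of 0.577 to 0.920 (p 0.0109, adjusted p 0.362, limma), and an exact two-sided permutation test gave p = 0.0571. In β-cat cOEs Scn1a was at 22.1, 26.4, 28.6 and 23.7 FPKM (-0.21 log2), and among APC/β-cat cKOs at 30.3, 18.8, 22.8 and 17.7 FPKM (-0.40 log2, adjusted p 0.294 by limma). Replicate 1 of the APC/β-cat cKOs was thus among the highest libraries and replicate 4 among the lowest.

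Markers of inhibitory neurons are given beside Scn1a. Pvalb, the marker of parvalbumin cells, was between 61.2 and 68.2 FPKM in controls and at 25.6, 54.4, 39.4 and 33.2 FPKM in the APC cKOs, lowest in replicate 1 and highest in replicate 2, as Scn1a was. That order is not particular to Pvalb, since Scn2a1 was also lowest in replicate 1 (42.9 FPKM) and highest in replicate 2 (59.5 FPKM). Replicates 3 and 4 stood in opposite order in Pvalb and Scn1a. The log2 difference of Pvalb was -0.81 (adjusted p 0.209, limma). The 7 inhibitory markers together summed to 715 to 838 FPKM in controls and to 642 to 759 FPKM in APC cKOs, 4 of the 7 were lower there, none passed the adjusted test, and none was at 0. Within the APC cKOs the highest sum was in replicate 3, where Scn1a was at 19.4 FPKM. In β-cat cOEs the sums were 627 to 749 FPKM, and 4 of the 7 markers were lower than in controls. Pvalb was again the lowest of them, with a difference of -0.53 log2. Of the 7 markers 1 had an unadjusted p under 0.05 there, and none passed the adjusted test. Among APC/β-cat cKOs the sums were 725 to 862 FPKM, 6 of the 7 markers were lower than in controls, and Pvalb differed by -0.15. Replicate 4 of that genotype had the highest sum of all 16 libraries, with Scn1a at 17.7 FPKM. APC cKO replicate 3 and APC/β-cat cKO replicate 4 also had the highest sums of striatal projection neuron markers in their genotypes (604 and 424 FPKM). The part of either list of markers in the differences of Scn1a was not tested.

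Scn2a1 and Scn8a, which encode the channels NaV1.2 and NaV1.6 of excitatory axons, were at 56.2 ± 6.61 and 35.1 ± 4.37 FPKM (SD, n = 4) in controls. Their log2 differences in APC cKOs were -0.15 and -0.31, and neither passed the unadjusted test. Ratios within a library take out what moves both genes alike. Scn2a1 exceeded Scn1a in all 16 libraries, by 1.74 to 2.13 times in controls and by 2.24 to 2.50 times in APC cKOs, ranges that do not overlap. The difference in log2 ratio was 0.31, with an exact two-sided permutation p of 0.0286, the smallest that 4 against 4 libraries can give. The ratio was 1.97 to 2.18 among β-cat cOEs (exact permutation p = 0.143) and 2.11 to 2.2 among APC/β-cat cKOs (exact permutation p = 0.0571). The ratio of Scn2a1 to Scn8a was 1.58 to 1.63 in controls, 1.64 to 1.92 in APC cKOs and 1.65 to 1.88 among β-cat cOEs, both above every control (exact permutation p = 0.0286 for each), and 1.54 to 1.73 among APC/β-cat cKOs (exact permutation p = 0.8). Over the 21 comparisons of 7 ratios none passed Benjamini-Hochberg adjustment, since the smallest exact permutation p became 0.15.

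**Figure D3:**
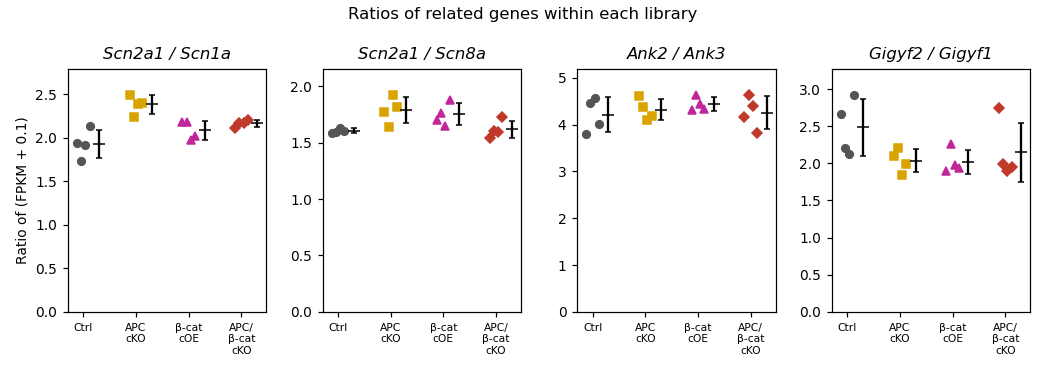
Ratio of 2 related genes within each library (FPKM + 0.1 of each), with 4 points per genotype and the mean ± SD beside them, on axes that start at 0. Scn2a1 over Scn1a is 1.74 to 2.13 in controls and 2.24 to 2.50 in APC cKOs, while Ank2 over Ank3 spans 3.80 to 4.64 with all genotypes mixed.

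Ank2 and Ank3, whose products anchor sodium channels at the axon initial segment and at other membrane sites, kept a steady ratio. Ank2 was 4.21 ± 0.37 times Ank3 in controls, 4.32 ± 0.22 in APC cKOs, 4.43 ± 0.15 among β-cat cOEs and 4.25 ± 0.35 among APC/β-cat cKOs (SD, n = 4), and no difference was larger than the spread (exact permutation p from 0.343 to 0.857). Cacna1c, the pore of the L-type calcium channel CaV1.2, had the lowest mean level of the group (5.67 FPKM). It was the only gene of the group above control among β-cat cOEs (7.53, 6.06, 6.23 and 5.58 FPKM against 5.29 to 6.06 in controls, 0.13 ± 0.16 log2). Its lowest library was APC/β-cat cKO replicate 4 at 3.34 FPKM.

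Chromatin regulators, the largest group with 13 genes, were split in direction in the lines with raised β-cat. In APC cKOs 6 were above and 7 below control (median -0.02), among β-cat cOEs also 6 and 7 (median -0.0034), and among APC/β-cat cKOs 2 and 11 (median -0.09). Adnp, a zinc finger protein of a chromatin remodelling complex, was the highest of the group at 37.2 FPKM, and Kdm6b the lowest. Chd8 was at 11.9 ± 0.70 FPKM in controls, 11.4 ± 0.35 in APC cKOs, 11.2 ± 0.96 among β-cat cOEs and 11.2 ± 1.46 among APC/β-cat cKOs (SD, n = 4). Its log2 differences from control were -0.06, -0.08 and -0.09, each with an SE of 0.09, and the 3 intervals together run from -0.27 to 0.13. Its ratio to the remodeller Chd2 within a library was 1.38 ± 0.065 in controls and 1.65 ± 0.19 among APC/β-cat cKOs (SD, n = 4, 0.24 log2, exact permutation p = 0.0286), 1 of the 21 ratio comparisons above.

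Phf21a (chr2:92093117-92364666, plus strand) was the single risk gene above all controls in both lines with raised β-cat. Controls held 5.83, 5.60, 5.75 and 5.62 FPKM, APC cKOs 6.78, 5.92, 6.30 and 5.95 FPKM, and β-cat cOEs 6.36, 6.37, 6.09 and 5.87 FPKM. The gap was narrow, since the lowest of these 8 libraries was at 5.87 FPKM and the highest control at 5.83 FPKM. APC/β-cat cKOs were at 5.46, 5.77, 6.17 and 5.85 FPKM and overlapped controls. The log2 differences were small, 0.13 ± 0.06 (SE) in APC cKOs and 0.11 ± 0.06 among β-cat cOEs, with exact permutation p = 0.0286 for each and adjusted p of 0.531 and 0.950 (limma). Over all tested genes 2.49% lay above every control in APC cKOs and 1.46% among β-cat cOEs, in the same test of overlap.

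Kdm6b was 2.12, 2.19, 2.81 and 2.69 FPKM in controls and 4.37, 2.87, 2.59 and 2.57 FPKM in APC cKOs, where replicate 1 alone stood high (0.30 ± 0.19 log2, and 0.131 without that library). That library also had the highest summed markers of immature neurons (174 FPKM, controls 83.7 to 119) and of astrocytes (512 FPKM, controls 337 to 364), and their part was not tested. Kdm5b, a demethylase of histone H3 lysine 4, did not overlap between APC cKOs (12.4, 10.7, 11.2 and 10.8 FPKM) and APC/β-cat cKOs (10.5, 10.5, 9.73 and 9.20 FPKM), a log2 difference of 0.17 ± 0.06 (adjusted p 0.344, limma). Of all tested genes 5.49% did not overlap in that comparison. The remaining genes of this group are Arid1b, a subunit of the BAF remodelling complex, the remodeller Chd2, the histone methyltransferases Ash1l, Ehmt1 and Nsd1, the SET domain gene Setd5, and Pogz and Mbd5, which bind chromatin. Of these, Ash1l (-0.33) and Chd2 (-0.33) had unadjusted p-values under 0.05 among APC/β-cat cKOs, as did Adnp (-0.13).

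Transcription factors and cofactors numbered 11, of which 9 were below control in APC cKOs (median -0.11), 7 among β-cat cOEs (median -0.05) and 10 among APC/β-cat cKOs (median -0.17). Myt1l, a factor that keeps neurons from expressing genes of other cell types, was the highest at 46.4 FPKM and differed by -0.04 (APC cKOs), -0.03 (β-cat cOEs) and -0.05 (APC/β-cat cKOs). Nipbl (chr15:8290617-8444463, minus strand), which loads cohesin onto DNA, was the lowest at 6.22 FPKM. It was at 7.04, 6.70, 6.59 and 7.08 FPKM in controls, 6.49, 6.42, 6.13 and 5.62 FPKM among β-cat cOEs and 6.42, 5.75, 6.12 and 4.39 FPKM among APC/β-cat cKOs, so all 8 of those libraries lay below every control. In APC cKOs it was at 6.70, 6.02, 6.09 and 6.02 FPKM, with replicate 1 inside the control range. The log2 differences were -0.14 in APC cKOs, -0.15 ± 0.10 (SE) among β-cat cOEs (exact permutation p = 0.0286) and -0.28 ± 0.10 among APC/β-cat cKOs (exact permutation p = 0.0286), with an adjusted p of 0.278 in the last (limma). Without replicate 4 of the APC/β-cat cKOs the last difference was -0.167. Of all tested genes, 1.62% lay below every control in the comparison with β-cat cOEs and 2.23% in that with APC/β-cat cKOs.

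Auts2, a nuclear protein that turns a Polycomb complex into an activator, had the smallest p of any risk gene. Controls were at 9.14, 7.80, 9.24 and 8.88 FPKM, β-cat cOEs at 8.07, 7.02, 6.86 and 7.39 FPKM and APC/β-cat cKOs at 7.04, 7.83, 7.27 and 6.45 FPKM. In each of those genotypes a single library lay above the lowest control, which was control replicate 2. The differences were -0.25 ± 0.08 (p 0.00683, adjusted p 0.946, limma) among β-cat cOEs and -0.29 ± 0.08 (p 0.00254, adjusted p 0.201, limma) among APC/β-cat cKOs. APC cKOs were at 8.73, 7.46, 8.38 and 7.67 FPKM (-0.12). Over the 4 genotypes together Auts2 and Scn1a were the only risk genes with an unadjusted p under 0.05 in limma's test of any difference (0.00984 and 0.0428), and none passed after adjustment. The share of all tested genes under that p in this test is not given here, so no weight is placed on the count.

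Med13l (chr5:118560679-118765438, plus strand) and its paralog Med13 belong to the kinase module of Mediator, the complex that links transcription factors to RNA polymerase. Med13l was at 10.3, 11.3, 10.5 and 11.1 FPKM in controls and at 8.41, 10.1, 8.96 and 9.74 FPKM in APC cKOs, all below the controls (-0.22 ± 0.10, exact permutation p = 0.0286, adjusted p 0.486 by limma). In β-cat cOEs it overlapped controls (-0.05), and among APC/β-cat cKOs it was at 10.9, 8.19, 10.2 and 7.49 FPKM (-0.24). With Phf21a it made 2 genes not overlapping controls in APC cKOs (4.44%, all genes 5.47%). There were 3 among β-cat cOEs, namely Phf21a, Nipbl and Gigyf2 (6.67%, all genes 3.08%), and only Nipbl among APC/β-cat cKOs (2.22%, all genes 5.21%).

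Tcf4 was at 50.4 ± 6.48 FPKM in controls and 42.0 ± 5.21 FPKM among APC/β-cat cKOs (-0.26 ± 0.09 SE, unadjusted p 0.0133, adjusted p 0.279, limma). Control replicate 4 was its highest library at 59.9 FPKM. Foxp1 had differences of -0.12 (APC cKOs), -0.16 (β-cat cOEs) and -0.17 (APC/β-cat cKOs). It is also expressed in striatal projection neurons, whose 7 markers summed to between 111 and 604 FPKM per library. In the library with the highest sum, APC cKO replicate 3, Foxp1 was at 15.8 FPKM against 10.6 FPKM in APC cKO replicate 1, which had the lowest sum of that genotype (147 FPKM). Control replicate 1, with the highest Foxp1 of all (17.3 FPKM), had the highest sum among controls (427 FPKM). Among APC/β-cat cKOs the order was the opposite, with Foxp1 at 13.5 FPKM in replicate 4, which had the highest sum (424 FPKM), and at 14.8 FPKM in replicate 1, which had the lowest (135 FPKM). Among β-cat cOEs Foxp1 was at 13.0 FPKM in replicate 4 (sum 324 FPKM) and highest in replicate 3 at 14.7 FPKM (sum 143 FPKM). Markers of striatal cells were at 0 in no library, and their part in these differences was not tested. Bcl11a, a zinc finger factor of deep cortical layers, ranged from 26.1 to 37.1 FPKM. Deaf1, a DNA-binding factor, was the only gene of this group above control among APC/β-cat cKOs (0.13 ± 0.08). Cic, a repressor of the Ras pathway's target genes, and Tbl1xr1, a part of the NCoR corepressor that also binds β-cat, differed from control by between -0.17 and 0.06.

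Genes of ubiquitin ligases, a kinase and microtubules made up a further 6, and 5 of them were below control in each genotype. Ube3a (chr7:59228750-59311536, plus strand) encodes the ubiquitin ligase of Angelman syndrome, expressed from the maternal allele in neurons. It had the largest difference of any risk gene, -0.51 ± 0.18 (SE) among APC/β-cat cKOs, or 0.701-fold with an interval of 0.536 to 0.916 (adjusted p 0.278, limma, exact permutation p = 0.143). Controls were at 18.7, 17.4, 16.6 and 19.0 FPKM and APC/β-cat cKOs at 18.9, 9.86, 15.6 and 8.45 FPKM. The difference lay in replicates 2 and 4, while replicate 1 was inside the control range and replicate 3 just below it. Without replicate 4 the difference was -0.326. In APC cKOs Ube3a was 14.2, 18.0, 16.8 and 16.4 FPKM and among β-cat cOEs 16.3, 18.5, 17.7 and 16.1 FPKM. Cul3 was at 72.5 ± 4.80 FPKM in controls and at 65.8 ± 3.56 in APC cKOs, 68.9 ± 3.59 among β-cat cOEs and 64.5 ± 5.50 among APC/β-cat cKOs (SD, n = 4), with log2 differences of -0.14, -0.07 and -0.17.

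Katnal2 was the exception of its group, above control in all genotypes. Controls were at 2.74, 2.46, 2.01 and 1.77 FPKM and APC cKOs at 2.67, 2.39, 3.71 and 3.03 FPKM, which overlap (0.38 ± 0.17, unadjusted p 0.0376, adjusted p 0.465, limma). In β-cat cOEs the difference was 0.16 and among APC/β-cat cKOs 0.28. Katnal2 has been linked to cilia. Markers of ciliated ependymal cells, 4 genes in all, summed to 3.54 to 5.80 FPKM in controls, 16.8, 3.99, 27.7 and 9.38 FPKM in APC cKOs, 6.28, 3.88, 4.64 and 20.5 FPKM among β-cat cOEs and 4.88, 17.2, 4.77 and 6.83 FPKM among APC/β-cat cKOs. In APC cKOs the library with the highest sum, replicate 3, was also the one with the highest Katnal2, and so was replicate 4 of the β-cat cOEs. Among APC/β-cat cKOs the highest sum was in replicate 2 (Katnal2 at 3.14 FPKM) and the highest Katnal2 in replicate 3 (3.18 FPKM). None of the 4 ependymal markers was at 0 in any group and none passed the adjusted test, and their part in the level of Katnal2 was not tested. Katnal2, Wac and Tcf4 share chromosome 18 with Apc, 42.7, 26.3 and 35.0 Mb away from it, and no risk gene lies on chromosome 9 with Ctnnb1. The kinase Dyrk1a, the ligase Trip12 and Wac differed from control by -0.22 to -0.04 in the 3 genotypes.

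Genes of translation and growth control numbered 6, with 4 below and 2 above control in each genotype. Tsc1 and Tsc2 encode the complex that restrains mTOR, and Nf1 encodes neurofibromin, which restrains Ras. Fmr1 encodes FMRP, an mRNA-binding repressor of translation, and Gigyf1 and Gigyf2 encode partners of the translation repressor 4EHP. Fmr1 was the highest (25.7 FPKM) and Nf1 the lowest (6.77 FPKM). Nf1 was at 8.10, 7.42, 6.41 and 9.71 FPKM in controls and at 6.06, 6.93, 5.79 and 6.40 FPKM in APC cKOs (-0.31 ± 0.16, adjusted p 0.530, limma), with replicate 4 as the highest control. In β-cat cOEs the difference was -0.24 ± 0.16 and among APC/β-cat cKOs -0.35 ± 0.16. Fmr1 was 27 ± 1.32 FPKM in controls and 24.1 ± 1.75 FPKM among APC/β-cat cKOs (SD, n = 4), or -0.17 on the log2 scale (unadjusted p 0.0193, adjusted p 0.288, limma).

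The 2 GIGYF genes differed in sign. Gigyf2 was at 18.0, 17.1, 17.7 and 19.4 FPKM in controls and at 16.4, 15.7, 16.2 and 16 FPKM among β-cat cOEs, all below the controls (-0.16 ± 0.08, exact permutation p = 0.0286, adjusted p 0.946 by limma). Gigyf1 was at 6.68, 7.70, 8.26 and 6.55 FPKM in controls and 8.61, 6.93, 8.13 and 8.21 FPKM among β-cat cOEs (0.13 ± 0.10), and at 8.37, 7.75, 8.64 and 7.98 FPKM in APC cKOs (0.17 ± 0.10). The ratio of Gigyf2 to Gigyf1 was 2.13 to 2.92 in controls and 1.85 to 2.2 in APC cKOs (exact permutation p = 0.0571). The log2 differences of Tsc2 were 0.08 to 0.10 and those of Tsc1 -0.11 to -0.04. Tsc2 exceeded Tsc1 in all 16 libraries by 1.07 to 1.64 times.

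Secreted and surface genes were the last 3. Reln had log2 differences of -0.41, -0.24 and -0.42, each with an SE of 0.35, and the intervals reach from -1.17 to 0.51. Its libraries were at 4.35, 5.93, 6.89 and 9.74 FPKM in controls, 7.51, 5.64, 2.94 and 4.30 FPKM in APC cKOs, 10.6, 6.16, 4.94 and 2.71 FPKM among β-cat cOEs and 5.33, 6.02, 4.61 and 3.58 FPKM among APC/β-cat cKOs, which overlap throughout. Without β-cat cOE replicate 4 the difference among β-cat cOEs was 0.08 instead of -0.24. Met was between 0.468 and 1.1 FPKM and differed by at most 0.22 (APC/β-cat cKO). Cntn4, the highest of the group at 15.9 FPKM, differed by -0.02, 0.03 and -0.09.

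**Figure D4:**
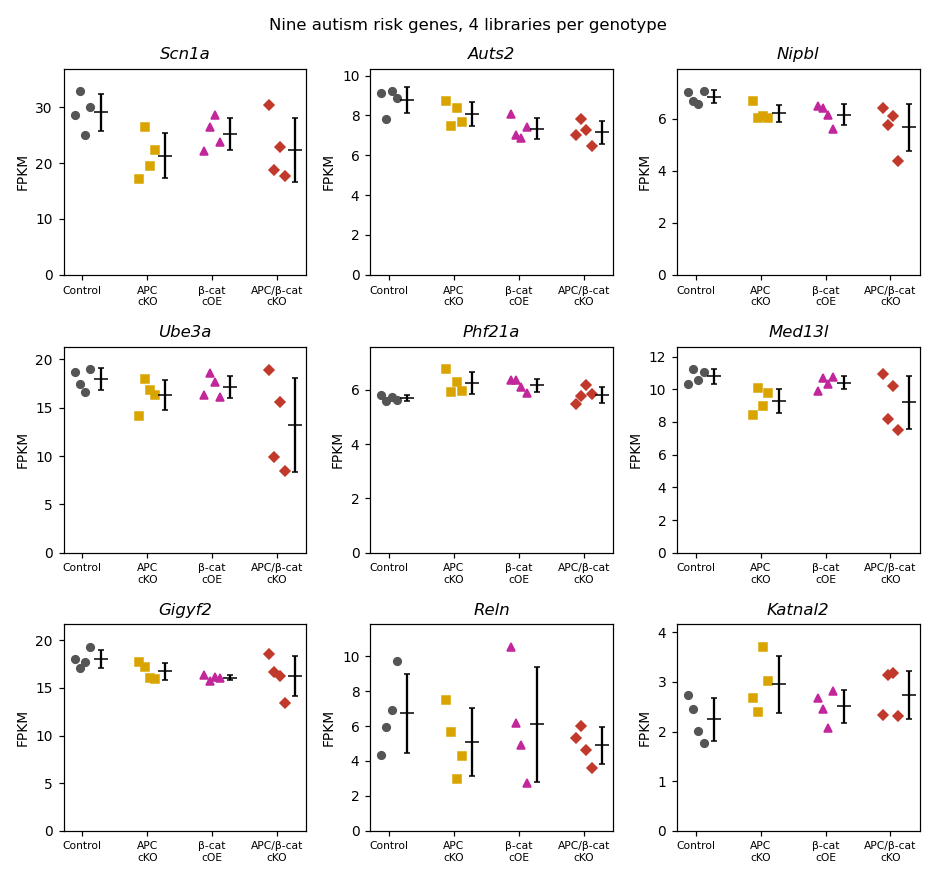
Expression of 9 ASD risk genes in each library (FPKM, axes from 0), with 4 points per genotype and the mean ± SD beside them. Nipbl lies below every control in both β-cat cOEs and APC/β-cat cKOs and Phf21a above every control in APC cKOs and β-cat cOEs, while Ube3a among APC/β-cat cKOs splits into replicates 1 and 3 at 15.6 to 18.9 FPKM and replicates 2 and 4 at 8.45 to 9.86 FPKM.

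As a list the 45 genes leaned to lower values. They were below control in 33 cases in APC cKOs (73.3%, all genes 51.4%), 30 among β-cat cOEs (66.7%, all genes 51.5%) and 38 among APC/β-cat cKOs (84.4%, all genes 49.1%). Their median log2 differences were -0.08, -0.05 and -0.14, against -0.0042, -0.0036 and 0.0031 over all tested genes. All 13 with an unadjusted p under 0.05 among APC/β-cat cKOs were lower, where 7.03% of all genes were lower at that threshold. They were Auts2, Nipbl, Ube3a, Tcf4, Med13, Chd2, Fmr1, Cul3, Scn1a, Med13l, Ash1l, Nf1 and Adnp.

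Markers of glia also differed between these genotypes. All 6 oligodendrocyte markers were higher among APC/β-cat cKOs (median 0.23, 3 at an unadjusted p under 0.05), with sums of 914 to 1032 FPKM against 712 to 1089 FPKM in controls. In APC cKOs all 6 were lower (median -0.26, 4 at such a p), with sums of 626 to 751 FPKM. All 5 microglial markers were higher among APC/β-cat cKOs (median 0.15, 2 at such a p), with sums of 103 to 112 FPKM against 97.0 to 105 FPKM in controls. All 5 astrocyte markers were higher in APC cKOs (median 0.17, 2 at such a p). None of these markers passed the adjusted test or was at 0, and their part in the values of the risk genes was not tested.

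Long transcripts moved in the same way. Among tested genes outside the list, the 1353 with transcripts over 6.41 kb had median differences of -0.07, -0.06 and -0.15 in the same order, and the 1380 under 1.17 kb had 0.04, 0.02 and 0.11. Library by library, the median deviation of the 45 genes from their means over 16 libraries had the same sign as that of the long transcripts in 13 of 16 libraries, and where the signs differed no value was beyond 0.03. The deviation was largest in APC/β-cat cKO replicate 4 (-0.28, with 43 of the 45 genes below their mean, long transcripts -0.31), in control replicate 4 (0.18, long transcripts 0.13) and in APC/β-cat cKO replicate 2 (-0.11, long transcripts -0.15). APC/β-cat cKO replicate 1 was at 0.10 and replicate 3 at -0.02. Short transcripts were at 0.21 in APC/β-cat cKO replicate 4, which also had the most genes at 0 (6649). Without APC/β-cat cKO replicates 2 and 4 the median difference of that genotype was -0.03, with 28 genes lower and 2 with an unadjusted p under 0.05. Over all 13978 genes 616 had such a p in that fit, against 1984 in the main fit. Replicates 2 and 4 were the libraries of that genotype with the lowest medians of the 45 genes, so leaving them out had to move the difference toward 0. With the slope of each library on transcript length as a covariate of every gene, the median difference was -0.03, with 26 lower and 1 with such a p. Over all genes the count with such a p went from 1984 to 721. The slope ran from -0.0055 to 0.083 (log2 per doubling of length) in controls and from -0.11 to 0.046 among APC/β-cat cKOs. It is thus partly tied to genotype, and the covariate may also take up differences between genotypes. The same covariate gave -0.013 in APC cKOs (23 lower) and 0.014 among β-cat cOEs (21 lower). Both of these settings were chosen after the data were seen. What sets the length effect in these libraries was not tested.

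**Figure D5:**
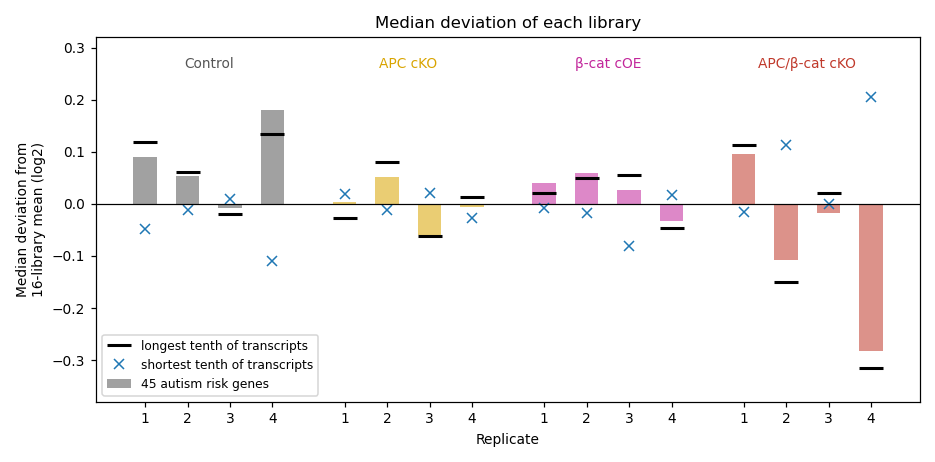
Median deviation of the 45 ASD risk genes in each library from their means over all 16 libraries (bars, log2), with the same median for the 10% of tested genes with the longest (black dashes) and shortest (blue crosses) transcripts. APC/β-cat cKO replicate 4 lies at -0.28 with long transcripts at -0.31 and short ones at 0.21, and control replicate 4 lies at 0.18 with long ones at 0.13.

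Partners of these genes, 127 genes of complexes and pathways that the risk genes belong to, were examined in the same way. Of the 125 found in the table, all were tested and none passed the adjusted test in any comparison. They were below control in 75 cases in APC cKOs (60%, all genes 51.4%), 85 among β-cat cOEs (68%, all genes 51.5%) and 91 among APC/β-cat cKOs (72.8%, all genes 49.1%), with medians of -0.01, -0.03 and -0.08. Unadjusted p-values under 0.05 were seen for 8 (6.4%, all genes 10%), 4 (3.2%, all genes 5.07%) and 25 of them (20%, all genes 14.2%). Among the 17 BAF partners, such as Smarca4, the ATPase that drives the complex with Arid1b, 10 were above control in APC cKOs and 6 among β-cat cOEs. Of the 14 partners of Mediator's kinase module and of cohesin, 13 were below control among APC/β-cat cKOs (median -0.11), as were 13 of the 16 partners of histone methylation (median -0.17). In APC cKOs 8 of the former and 11 of the latter were below control, and among β-cat cOEs 9 and 8. Of 22 channel partners, 18 were below control in APC cKOs (median -0.10), 17 among β-cat cOEs and 19 among APC/β-cat cKOs. Of 16 mTOR partners, 10, 12 and 13 were below. The smallest unadjusted p among partners in APC cKOs was that of Pik3ca (-0.24 ± 0.07 SE, adjusted p 0.316, limma), the catalytic subunit of PI3-kinase, and among APC/β-cat cKOs that of Chd9 (-0.41 ± 0.12, adjusted p 0.244, limma), a relative of Chd8. The partners of CHD and NuRD complexes (18 genes), of FMRP and 4E proteins (7), of cullins and HECT ligases (9) and of reelin (6) had medians between -0.12 and 0.01.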

How the data were processed

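RNA-seq (Illumina TruSeq stranded mRNA, paired-end) was analysed in 16 PFC libraries. Per the labels, the authors mapped reads to mm10 with TopHat2 2.0.10 and processed them with Cuffdiff 2.1.1. The deposited log2 values were made by the authors from FPKM + 1. The base is not given, and base 2 was assumed because FPKM multiplied by transcript kilobases then totals 1151510 to 1224480 in a library. Values were turned back into FPKM. By Xist and Y-linked genes, 2 libraries read as female, control replicate 1 and APC cKO replicate 1.

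Genes averaging 0.5 FPKM or more were fitted with limma 3.58.1 (lmFit, eBayes with trend, R 4.3.3) on log2(FPKM + 0.1), all 16 libraries in 1 model, with Benjamini-Hochberg adjustment over 13978 genes and a threshold of 0.05. The code was tested on simulated data, where 5 of 13778 unchanged genes were called. Single values were compared by exact two-sided permutation tests of 4 against 4. Gene models were from GENCODE M21, of the transcript with the longest coding sequence. Replicates are separate samples by their labels, but nothing says how the samples were drawn, so p-values measure the spread between these samples.

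Full statistics are given for genes past the threshold, genes not overlapping controls, the 3 largest rises and falls against control, and the highest and lowest of each group. The members and lists were chosen with earlier results of these data known. The alternatives were other pseudocounts, filters, scalings, no trend, sex, a replicate block, only the groups compared, and each library left out.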

Additional observations from a re-analysis of the deposited data

Results flagged for a closer look

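In 5 of the 188 sets of 4 replicates examined (45 risk genes, Apc and Ctnnb1 in 4 genotypes), 1 library stood apart from the other 3 by Dixon's ratio of the gap to the range at the 95% level, where chance gives about 1 in 20, or 9.4. Nipbl in APC cKOs had the largest ratio (0.893), with replicate 1 at 6.70 FPKM and the others at 6.02 to 6.09 FPKM. Tsc1 in APC cKOs (0.851) was at 13.3 FPKM in replicate 2 and 11.7 to 11.9 FPKM in the others. Bcl11a in β-cat cOEs (0.838) was at 37.1 FPKM in replicate 1 and 30.3 to 31.4 FPKM in the others. Kdm6b in APC cKOs (0.837) was at 4.37 FPKM in replicate 1 and 2.57 to 2.87 FPKM in the others. Chd8 in controls (0.836) was at 10.8 FPKM in replicate 3 and 12.1 to 12.3 FPKM in the others.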

How the results depend on the processing

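No risk gene passed the adjusted threshold in any of the 188 alternative fits of the 7 comparisons, among them the replicate block, which gave 0 calls, and every fit without 1 library (0 to 0). At an unadjusted p, 26 gene and comparison pairs passed over the 7 comparisons. For each comparison the share over all tested genes is given above. The median difference in APC/β-cat cKOs was -0.14. It was -0.0325 without replicates 2 and 4, the libraries of that genotype with the lowest medians of the risk genes, so it had to move toward 0. It was -0.0260 with the length slope of each library as a covariate. Without 1 library it ranged from -0.216 to -0.0876 in APC/β-cat cKOs, between -0.112 and -0.0420 for APC cKOs, and between -0.0798 and -0.0259 for β-cat cOEs. The count of unadjusted calls in APC/β-cat cKOs, 13 in all, was 24 without its replicate 1, 5 without its replicate 2, 2 without its replicate 4, 6 without control replicate 4 and 8 in a fit of only those 2 groups. Over all 13978 genes the count of 1984 also moved, to 2903, 1266, 1062, 1271 and 1418 in that order. In APC cKOs the count of 4 was 8 without replicate 2, 7 without APC/β-cat cKO replicate 1 and 1 without replicate 3 or control replicate 4. The count of 1400 over all genes became 1814, 1474, 1054 and 1034 in that order. Between APC cKOs and APC/β-cat cKOs the count of risk genes went from 3 to 9 without APC/β-cat cKO replicate 1 (all genes 1437 to 1829). Between β-cat cOEs and APC/β-cat cKOs it went from 4 to 16 without that library (all genes 1665 to 2339). It went to 0 without APC/β-cat cKO replicate 4 (all genes 1140). Of 701 alternative values of 26 single results, 700 kept their direction and side of the threshold, but only those of Apc passed it in any fit. Sizes changed more. In APC/β-cat cKOs Ube3a ranged from -0.711 to -0.0611, Scn1a from -0.558 to -0.110 and Met from 0.0550 to 0.414. Reln in β-cat cOEs ranged from -0.556 to 0.0846 with each library left out, above 0 without β-cat cOE replicate 4. The cause of these ranges was not tested.

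Replicates are named in accession order. The replicate block used the numbers in the sample titles, which differ only for APC cKO replicates 3 and 4 (titled 4 and 5) and are not tied to a litter or day. Same-numbered samples deviated together by r of -0.22 to 0.32 (21 pairs, median -0.069), and 5 samples correlated best with their own number. With the replicate block the median in APC/β-cat cKOs was -0.14 with 11 unadjusted calls, and in APC cKOs -0.087 with 1. Over all 13978 genes that fit gave 1641 and 906 such calls, against 1984 and 1400 in the main fit. Depth is unknown here, and Met at 0.468 to 1.1 FPKM is the level most limited by it.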
